A study of Drosophila melanogaster with 4 samples.

Results

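Compact LSD1 sites are short stretches of the fly genome that were called as enriched for the histone demethylase LSD1 and were found in both ChIP replicates. They were chosen by their width and their overlap with both replicate lists. A member is a region of enrichment, called a cluster here, of the list made for the replicate set (the combined list), lies on chromosome arm 2L, 3L, 3R or X, is 3000 bp wide or less, and overlaps by at least 1 bp a cluster of replicate 1 and one of replicate 2. This gave 731 sites of the 9853 clusters of the combined list, and of the 7741 clusters on these 4 arms. Distances to neighbours were taken within an arm.

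The chromatin came from nuclei of wild-type Oregon-R Drosophila melanogaster at the larval stage of the third instar, with no mutation, transgene or treatment in any group. The series holds 4 samples: 2 chromatin immunoprecipitation (ChIP) libraries made with the LSD1 antibody Q3430 and 2 input libraries of unselected chromatin, one for each ChIP replicate. Whole larvae hold many tissues, so a site used in few cells and a weak site in all cells cannot be told apart. Whether the replicates stem from separate batches of larvae is not in the labels, and their spread may be technical.

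LSD1, the product of the gene Su(var)3-3 in the fly, removes methyl groups from a lysine of histone H3 that marks active promoters and enhancers. It works with the corepressor CoREST, and the fly gene was found through its effect on silencing near heterochromatin. Short sites and broad domains are the forms in which a chromatin enzyme can appear in a ChIP profile. Neither the sequence nor the genes at the sites were analysed here, because no genome or annotation of the build of the lists, FlyBase release 5, was used.

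The deposited values are the authors' own, one for each cluster, and were read as the log2 ratio of ChIP to input. The combined list and the replicate lists were made separately, so values of different lists stand side by side here without a comparison of their levels. Read numbers are not given, and the depth behind a value is unknown. The sites were chosen from these lists, and 2 replicates allow no test over samples, so every value below is a description with its spread. Intervals are exact 95% binomial or Poisson intervals and cover counting error only.

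The compact sites were a small part of the compact clusters. Of the 5239 clusters of 3000 bp or less on the 4 arms, 14.0% met the rule, and nothing is read from this share, which the rule itself sets. Among the rest, 739 overlapped replicate 1 only, 1536 overlapped replicate 2 only and 2233 overlapped neither. The 731 sites spanned 1.68 Mb, or 5.07% of the bases in clusters of these arms. They made up 9.44% of the clusters there.

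The sites lay toward the upper end of the permitted widths. Their width had a median of 2275 bp, with quartiles of 1998 and 2590 bp, and ran from 1191 to 2999 bp. Only 7 of the 2475 clusters up to 1500 bp were sites, against 177 of 1506 between 1500 and 2000 bp, 316 of 760 between 2000 and 2500 bp and 231 of 498 between 2500 and 3000 bp. The narrowest cluster of either replicate list was 1301 bp wide. The widest sites, of 2999, 2999 and 2993 bp, lay on 3L from 12671074 to 12674072, on X from 6198200 to 6201198 and on 2L from 15759512 to 15762504, with combined values of 0.48, 0.60 and 0.55. Just outside the limit, clusters of 3001 and 3005 bp on X from 19665022 and 11898030 and one of 3009 bp on 3L from 22794688 had 0.54, 0.73 and 0.69. The narrowest sites, of 1191, 1269 and 1335 bp, lay on X from 14682414 to 14683604, on 2L from 1634032 to 1635300 and on 3L from 19135430 to 19136764, with 0.49, 0.44 and 0.31. Each of these narrowest sites was covered only in small part in 1 replicate. The share was 38.4% on X and 5.39% on 3L in replicate 1, and 46.6% on 2L in replicate 2.

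In both replicates most sites were compact as well. The width limit and the required overlap bear on these widths and on the coverage, which are given as a description. The overlapping cluster was 3000 bp wide or less at 690 of 731 sites (94.4%) in replicate 1 and at 725 (99.2%) in replicate 2. The median of its width was 1958 bp in the first and 1807 bp in the second replicate, which average 1882.5 ± 107 bp (SD, n = 2). Clusters of replicate 1 covered 81.8% of the bases of the sites and those of replicate 2 covered 79.5%, a mean of 80.6 ± 1.6% (SD, n = 2). At least 50% of the site was covered at 707 sites in replicate 1 and at 715 in replicate 2, so overlaps of a few bases were rare. Coverage under 10% occurred at 6 sites in replicate 1 and 4 in replicate 2.

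A short region that must touch a cluster of each replicate brings those clusters close together, so their distance largely restates the rule and is given as a description. The clusters of the replicates overlapped each other at 725 of the 731 sites, and at the other 6 they touched different parts of the combined cluster. Their centres were 166.5 bp apart in the median, with quartiles of 65 and 364.5 bp, and 618 sites (84.5%) had centres within 500 bp. At 47 sites the centres were over 1000 bp apart. A single cluster per replicate was present at 716 sites, and no site had more than 2 in a list.

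Most sites had values in the lower part of the replicate lists. In replicate 1 the values ran from 0.14 to 1.56, with a median of 0.58, and in replicate 2 from 0.14 to 1.61, with a median of 0.55. These medians stood at the 37.1 and 32.9 percentile of the whole lists, a mean of 35.0 ± 3.0 (SD, n = 2), and 33.5% and 29.3% of the sites lay above the median of their list. Values and cluster widths went together across the sites (Spearman's rho of 0.55 in each replicate, n = 731, within one list and with no test), and the part of width in this order was not tested. Among clusters of 3000 bp or less of the replicate lists themselves, the difference was small and had no common sign. In replicate 1 the 696 at a site had a median of 0.57 and the other compact ones 0.55, and in replicate 2 the 728 at a site had 0.55 and the others 0.57. In the combined list the sites had a median of 0.45, with quartiles of 0.38 and 0.54, at the 53.9 percentile of that list.

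**Figure D1:**
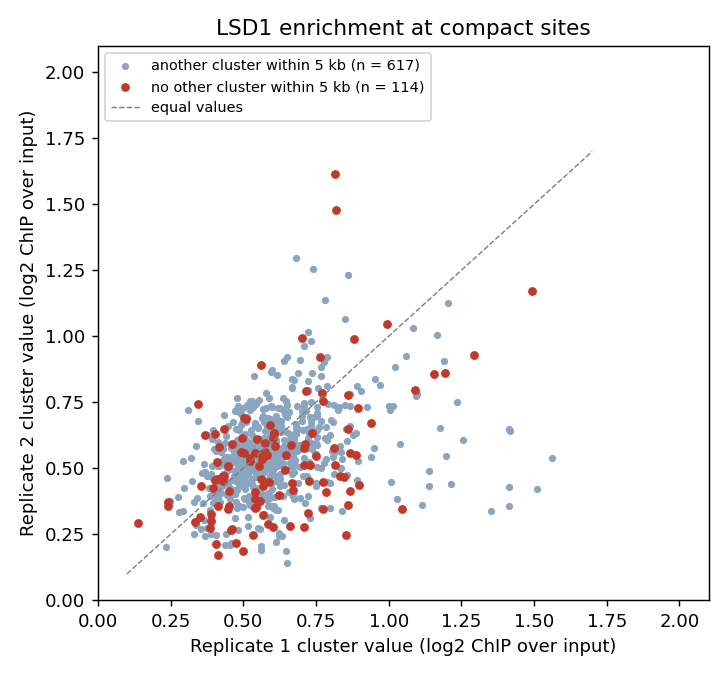
Each point is 1 of the 731 compact sites, with the value of its overlapping cluster in replicate 1 on the x axis and in replicate 2 on the y axis, both as log2 of ChIP over input. Red points are the 114 sites with no other combined cluster within 5 kb, and blue points are the other 617. The cloud centres near 0.58 and 0.55, and the groups of points overlap over nearly their whole range.

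The order of the sites by value was shared only in part by the replicates. Across the 731 sites Spearman's rho was 0.38 and Pearson's r was 0.37, as the plot of replicate values shows. The points share the combined list that chose them, are not independent, and no p is given. The upper 25% by value shared 87 sites, which is 47.5% of the 183 sites in that part of replicate 1 and 47.3% of the 184 in replicate 2.

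At 12 sites the replicate values referred to regions of very different width. There the cluster of replicate 1 was over 10 kb wide, from 10952 to 92155 bp with a median of 22766.5 bp, and covered far more than the site. Its values ran from 1.01 to 1.56, with a median of 1.29. In replicate 2 none of the 731 sites had a cluster over 10 kb, the widest being 4968 bp, and the values at these 12 sites ran from 0.36 to 0.65, with a median of 0.44. Of the 12, 11 lay within 1 kb of a cluster over 10 kb of the combined list. Over the 684 sites whose clusters were 3000 bp or less in both replicates, rho was 0.44.

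The 8 sites with the largest combined values had between 0.99 and 1.35. The highest of them lay on 3R from 8302070 to 8304952, at 1.35, while the replicates gave 1.49 and 1.17. Clusters of the replicates covered 84.6% and 82.0% of it, and its nearest neighbour was 6823 bp away. The next, on 3R from 3918972 to 3921104, had 1.18, with 1.20 and 1.13 in the replicates. It lay 9223 bp from a broad cluster of 18713 bp with a value of 1.32.

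A pair of these 8 sites lay at the centromere-side end of X. The site on X from 21522808 to 21525434 had a combined value of 1.14, beside 0.82 and 1.48 for replicates 1 and 2. The one on X from 22101280 to 22104032 had 1.08, with 0.82 and 1.61. At both, clusters of replicate 1 covered a smaller part (57.3% and 57.6%) than those of replicate 2 (98.3% and 93.1%). The first of these had no cluster for 319255 bp on its right side.

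The other 4 lay on 2L, 3R and 3L. On 2L the site from 20119962 to 20122098 had 1.10 (1.29 and 0.93 in replicates 1 and 2) and no neighbour within 27125 bp. The site on 2L from 869520 to 872390 had 1.04 (1.17 and 1.01), with a neighbour at 647 bp. On 3R from 12623418 to 12625692 the value was 1.00 (1.15 and 0.86), and on 3L from 12741696 to 12744504 it was 0.99 (1.08 and 1.03). These 8 strong sites therefore included crowded and lone ones, with neighbours from 647 to 27125 bp away.

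Most compact sites had another combined cluster nearby. A site was called isolated when no other cluster of the combined list lay within 5 kb on either side. This held for 114 of 731 sites (15.6%, interval 13.0 to 18.4), beside 14.5% of the other 7010 clusters of the 4 arms. The median distance to the nearest other cluster was 905 bp, beside 919 bp for the other clusters. With only clusters found in both replicates counted as neighbours, the isolated share of the sites was 43.1% and their median distance 3737 bp. No share of the other clusters is given beside these values. The nearest cluster was within 500 bp at 264 sites (36.1%), within 1 kb at 386 (52.8%) and over 10 kb away at 40 (5.47%). Neighbours within 5 kb were present on both sides at 361 sites (49.4%) and on 1 side at 256 (35.0%). The farther of the neighbours was 5119 bp away in the median. The nearest cluster was within 1 kb for 42.2%, 49.2% and 45.0% of the compact clusters of replicate 1 only, replicate 2 only and neither. For clusters found in both replicates this was 61.5% over 3 kb and up to 10 kb, and 61.25% over 10 kb. The sites, with 52.8%, stood between these groups. No share of the other clusters is given beside the counts by side, and nothing is read from those.

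The isolated share was also counted in the other classes of cluster. Isolated were 19.8% (interval 16.9 to 22.8) of the compact clusters found in replicate 1 only, 14.1% (12.4 to 16.0) of those in replicate 2 only and 18.0% (16.5 to 19.7) of those in neither. Of the clusters over 3 kb and up to 10 kb found in both replicates, 11.0% (9.45 to 12.7) were isolated, and of those over 10 kb found in both, 8.61% (6.67 to 10.9). The interval of the sites overlaps those of the other compact classes and lies above those of both wider classes, but no test was made. Sites between 1500 and 2000 bp were isolated in 22.6% of cases, those between 2000 and 2500 bp in 13.9% and those between 2500 and 3000 bp in 12.6%. The compact clusters of the same widths that were no sites had 14.5%, 10.8% and 9.74%. Up to 1500 bp the order was the opposite, with 14.3% of the 7 sites and 20.2% of the other compact clusters.

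**Figure D2:**
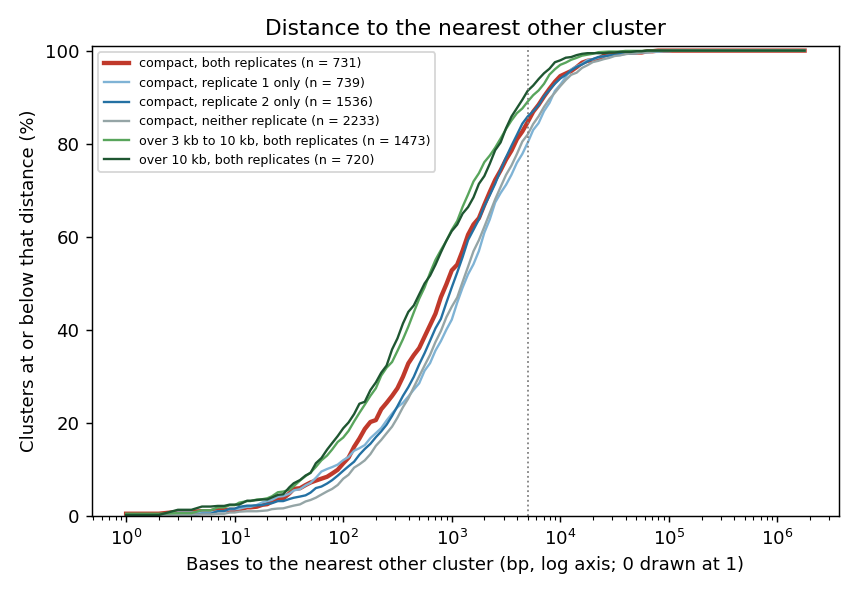
The share of clusters whose nearest other cluster of the combined list lies at or below the distance on the x axis, in bp on a log axis, for 6 classes of clusters of the 4 arms. The dotted line marks 5 kb. The compact sites (red) have a median of 905 bp, between 562 bp for clusters over 10 kb and 1313 bp for compact clusters of replicate 1 only.

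Isolation depended on the list in which neighbours were counted. Within the list of each replicate, distances were measured from the edges of the overlapping cluster. There 39.9% of the sites in replicate 1 and 32.1% in replicate 2 had no other cluster within 5 kb. A combined neighbour that the same replicate cluster also covered was not counted, so a bridged site can count as isolated. Bridged were 63 sites in replicate 1 and 15 in replicate 2. For example, the site on 2L from 12455060 had a neighbour at 945 bp in the combined list but at 18065 bp in replicate 1. The mean was 36.0 ± 5.5% (SD, n = 2). The other clusters of the 4 arms that overlap the replicate had 36.1% and 27.8%. Compact clusters found in that replicate only had 41.7% and 31.25%. The median distances of the sites were 3677 and 2926 bp, beside 3279 and 2307 bp for the other clusters. The combined list holds 9853 clusters, more than the 5704 and 7936 of the replicate lists, and the part of this in the smaller distances was not tested. Of the 114 isolated sites of the combined list, 108 were isolated in both replicate lists too, and 185 sites were isolated in both replicate lists.

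The most isolated site was on 3R from 13359368 to 13361412, with no other cluster for 83329 bp on the left and 74211 bp on the right. Its combined value was 0.51, beside 0.65 and 0.55 for the replicates, and its nearest neighbours were 80709 and 78984 bp away in the replicate lists. Next came a site on 3R from 24088738 to 24091532, 58577 bp from its nearest neighbour, with 0.62, and 0.88 and 0.99 in the replicates. A site on 3R from 23689958 to 23692176 followed at 58283 bp, with 0.78, and 0.77 and 0.76 in the replicates. On 2L from 4418434 to 4420556 the distance was 37167 bp, with values of 0.45, 0.40 and 0.63, and on X from 18030848 to 18033004 it was 34693 bp, with 0.46, 0.67 and 0.44. In the replicate lists these 5 were 34910 to 80709 bp (replicate 1) and 36249 to 78984 bp (replicate 2) from the next cluster.

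The neighbours of the sites were of every kind. The nearest cluster was a compact one seen in 1 replicate at 190 sites (26.0%) and a compact one seen in neither at another 190. It was a cluster over 3 kb and up to 10 kb at 199 sites (27.2%), one over 10 kb at 81 (11.1%) and another compact site at 71 (9.71%). For the other clusters of the 4 arms these shares were 28.8%, 27.8%, 24.2%, 9.73% and 9.56%. The nearest cluster was found in both replicates, at any width, for 44.9% of the sites and for 39.1% of the other clusters. No test was made of these shares.

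In the order of clusters along an arm, 597 sites (81.7%) had no other site as a direct neighbour, beside 82.2% of the other clusters of the 4 arms. A further 112 sites formed 56 adjacent pairs, 18 formed 6 runs of 3, and 4 formed a single run of 4.

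Some gaps between a site and its neighbour were bridged in a replicate. A cluster of replicate 1 also covered another combined cluster at 63 sites (8.62%), beside 10.2% of the other clusters of the 4 arms that overlap replicate 1. In replicate 2 this held for 15 sites (2.05%), beside 4.71%. Only 2 sites were bridged in both. At bridged sites the nearest cluster was close. In replicate 1 its distance had a median of 125 bp and was at most 945 bp, and in replicate 2 these were 41 and 313 bp. These sites are separate from their neighbour in the combined list, and 1 cluster of a replicate overlaps both, wholly or in part.

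Broad clusters, those over 10 kb, were within 10 kb of 183 sites (25.0%, interval 21.9 to 28.3), beside 24.7% of the other clusters of the 4 arms. The median distance was 32611 bp, with quartiles of 9986 and 84969 bp, beside a median of 30890 bp for the other clusters. A broad cluster lay within 1 kb of 55 sites (7.52%), over 50 kb from 268 (36.7%) and over 100 kb from 159 (21.8%). It was the direct neighbour on at least 1 side of 135 sites (18.5%) and on both sides of 10. Within 10 kb on both sides, broad clusters flanked 17 sites (2.33%). A broad cluster lay within 1 kb of 6.36%, 5.21% and 4.30% of the compact clusters of replicate 1 only, replicate 2 only and neither. For clusters found in both replicates this was 10.6% over 3 kb and up to 10 kb, and 13.3% over 10 kb. Within 100 kb the sites had 78.2%, and these 5 classes 77.1%, 80.9%, 77.6%, 81.6% and 86.8%. No share of the other clusters is given for direct or both-sided neighbours, and nothing is read from those counts.

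In the combined list, the share near a broad cluster was lower in the other compact classes and higher in the wider ones. It was 22.5% (interval 19.5 to 25.6) for compact clusters of replicate 1 only, 21.0% (19.0 to 23.1) for those of replicate 2 only and 18.7% (17.1 to 20.4) for those of neither. Clusters over 3 kb and up to 10 kb found in both replicates had 31.1% (28.7 to 33.5), and those over 10 kb found in both had 38.8% (35.2 to 42.4). The interval of the sites overlaps those of the compact clusters of replicate 1 only and of replicate 2 only. It lies above that of the compact clusters of neither and below those of both wider classes. These differences were not tested. By width, sites had 26.0% between 1500 and 2000 bp, 25.6% between 2000 and 2500 bp and 22.5% between 2500 and 3000 bp. The other compact clusters had 20.9%, 22.1% and 23.2%, so the order was the opposite in the widest class. Up to 1500 bp, 57.1% of the 7 sites and 19.0% of the others were near one. When broad clusters were taken from the replicate lists, 16.0% of the sites in replicate 1 and 10.9% in replicate 2 were within 10 kb of one. The mean was 13.5 ± 3.6% (SD, n = 2). A replicate cluster over 10 kb that overlaps the site counts as near, as at 12 sites in replicate 1. Counted the same way, all other clusters of the 4 arms had 20.3% and 15.5%. These shares include the clusters over 10 kb, which had 76.5% and 63.2% and a median distance of 0 bp. Many of those overlap a replicate cluster over 10 kb and so count as near, which raises the shares of all other clusters. The sites are therefore not read as lower than the other clusters. Clusters over 3 kb and up to 10 kb found in both replicates had 20.0% and 14.5%. Compact clusters had 16.9% and 11.6% (replicate 1 only), 11.6% and 8.66% (replicate 2 only), and 10.4% and 7.30% (neither). Those of replicate 1 only thus stood above the sites in both lists. The median distances of the sites were 52694 and 79206 bp.

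**Figure D3:**
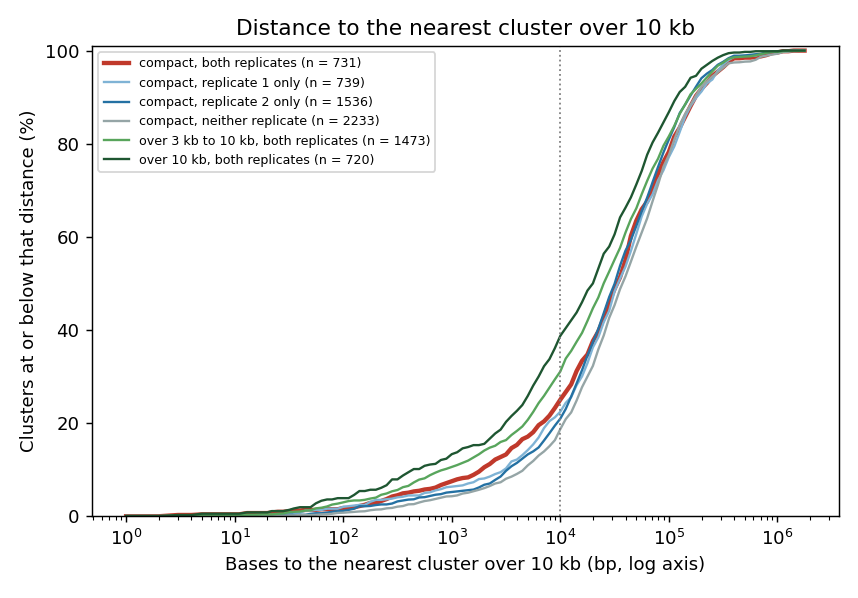
The share of clusters whose nearest cluster over 10 kb of the combined list lies at or below the distance on the x axis, in bp on a log axis, for the same 6 classes. The dotted line marks 10 kb. At that distance the compact sites (red) reach 25.0%, clusters over 10 kb reach 38.8% and compact clusters of neither replicate reach 18.7%.

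The sites closest to a broad cluster were separated from it by a few bases. On 2L from 66874 to 68876 and on 3L from 9342450 to 9343846 the gap was 3 bp, to domains of 15201 and 15939 bp, and on X from 15503786 to 15506544 it was 5 bp, to a domain of 13581 bp. Gaps of 13 bp followed on X from 19285300 to 19287418 and on 2L from 7984196 to 7986380. Of the site on 3L, clusters of replicate 2 covered only 3.72%. The combined values of these 5 sites were 0.35, 0.17, 0.51, 0.44 and 0.35. Those of the broad neighbours were higher, at 0.52, 0.72, 0.59, 0.58 and 0.96. Measured to the broad clusters of the replicate lists, the same 5 sites were 6670 to 55671 bp away in replicate 1 and 433 to 297693 bp away in replicate 2. Measured to the next replicate cluster of any width, from the edge of the cluster at the site, the distances were 236 to 2495 bp in replicate 1 and 125 to 646 bp in replicate 2.

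The sites farthest from any broad cluster of their arm lay at the centromere-side ends of 2L and 3L. For each of them the nearest broad cluster lay on the left. The arms end at 23.01 Mb (2L) and 24.54 Mb (3L), and nothing beyond an arm end was counted. These distances are therefore one-sided. On 3L the site from 24220402 to 24223270 was 1335149 bp from the nearest broad cluster and the one from 23730200 to 23732636 was 844947 bp away. Their combined values were 0.64 and 0.96, with 1.23 and 0.75 and then 1.19 and 0.86 in the replicates. On 2L the sites from 22967280 to 22969654, from 22960118 to 22962986 and from 22816152 to 22818606 were 1095379, 1088217 and 944251 bp away. Their values were 0.67, 0.74 and 0.32, with 0.85, 0.91 and 0.56 in replicate 1 and 0.74, 0.79 and 0.54 in replicate 2. The first of the 3L sites had another cluster at 31 bp in the combined list, and that neighbour was found in replicate 1 only. Apart from the clusters that overlap the site, the list of replicate 1 had none for 196060 bp. A cluster of replicate 1 at the site thus also overlapped that neighbour, and the long distance does not mean that replicate 1 lacked it. A pair of the 2L sites were each other's nearest neighbour, 4293 bp apart.

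Isolated sites also lay farther from broad clusters. The median distance was 59207 bp for the 114 isolated sites and 28325 bp for the other 617. This is partly set by the rule, because a broad cluster within 5 kb ends isolation. Of the isolated sites, 62 had no broad cluster within 50 kb and 8 had one between 5 and 10 kb away. Isolated sites were slightly narrower, with a median of 2116 bp against 2307 bp.

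The median values of the sites differed little between classes of surroundings. Values went with width across the sites, and isolated sites were narrower. The classes were not matched in width, and the part of width in these medians was not tested. For isolated sites the medians were 0.58 (replicate 1) and 0.51 (replicate 2), averaging 0.54 ± 0.05 (SD, n = 2), and the other sites had 0.58 and 0.56, a mean of 0.57 ± 0.02. Taken within each replicate, the difference of isolated minus other sites was -0.0045 and -0.046, a mean of -0.025 ± 0.029 (SD, n = 2), smaller than its spread. Sites within 10 kb of a broad cluster had medians of 0.58 and 0.55, and those farther away 0.59 and 0.55. Across the 6 distance classes the medians ran from 0.54 to 0.61 in replicate 1 and from 0.53 to 0.57 in replicate 2 for broad clusters. For the nearest cluster of any width they ran from 0.55 to 0.60 and from 0.50 to 0.56. Across sites, the combined value had a Spearman's rho of 0.03 with the distance to the nearest cluster and of 0.10 with that to the nearest broad cluster (n = 731, given as a description).

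**Figure D4:**
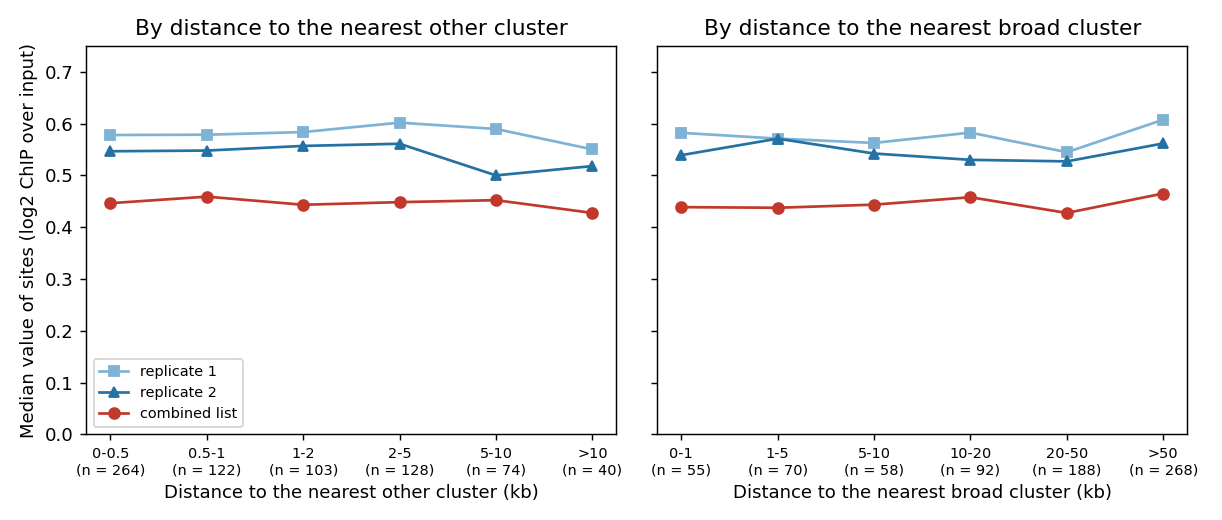
Median value of the compact sites, as log2 of ChIP over input, in 6 classes of distance to the nearest other cluster (left) and to the nearest cluster over 10 kb (right), with the number of sites under each class. Squares are replicate 1, triangles replicate 2 and circles the combined list. On the left the medians run from 0.55 to 0.60 in replicate 1 and from 0.50 to 0.56 in replicate 2. On the right they run from 0.54 to 0.61 and from 0.53 to 0.57. The classes were not matched in width.

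The sites were spread over all 4 arms. There were 188 on 2L, 199 on 3L, 200 on 3R and 144 on X, which is 8.17 per Mb (interval 7.04 to 9.42), 8.11 (7.02 to 9.32), 7.17 (6.21 to 8.23) and 6.42 (5.42 to 7.56). As a share of the clusters of the arm they were 10.4%, 9.63%, 8.80% and 9.05%. Each of the 96 full windows of 1 Mb held at least 2 sites, with a median of 7.5 and quartiles of 5 and 9. The richest was 2L from 10 to 11 Mb with 20 sites, followed by the first megabase of 2L and 3L from 21 to 22 Mb with 16 each. The window with 20 sites held 4 broad clusters. Over the windows, the number of sites had a rho of 0.03 with the number of broad clusters and of 0.45 with that of all clusters (n = 96, adjacent windows, no test). The count of all clusters includes the sites themselves, so the rho of 0.45 is positive in part by construction.

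Isolation was least frequent on 2L and most frequent on X in all 3 lists. In the combined list 11.2% (interval 7.05 to 16.6) of the sites on 2L were isolated, 14.1% (9.56 to 19.7) on 3L, 18.0% (12.9 to 24.0) on 3R and 20.1% (13.9 to 27.6) on X. In the replicate lists the share was 29.5 ± 7.1% (SD, n = 2) on 2L, 35.4 ± 8.2% on 3L, 38.5 ± 3.5% on 3R and 42.0 ± 2.5% on X. Taken within each replicate list, X minus 2L was 9.18 and 15.8 percentage points, 3L minus 2L was 6.63 and 5.18, and X minus 3R was 2.75 and 4.28. These kept their sign in both lists, while 3R minus 3L was -0.21 and 6.35. Replicate lists are only 2, and no test was made. Among the other clusters of the combined list X also had the largest share, 17.4%, and 3R the smallest, 12.8%, with 14.7% on 2L. The share near a broad cluster was even over the arms, from 24.0% on 3R to 26.4% on X. Median values were highest on X, at 0.64 in replicate 1 and 0.58 in replicate 2, and lowest on 3R, at 0.56 and 0.52.

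**Figure D5:**
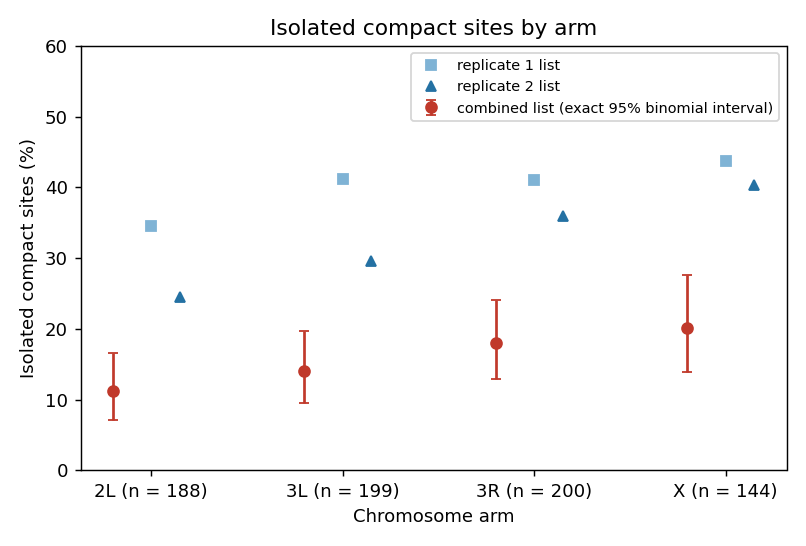
Percent of the compact sites of each arm with no other cluster within 5 kb, counted in the combined list (circles, with exact 95% binomial intervals for counting error), in the list of replicate 1 (squares) and in that of replicate 2 (triangles). The number of sites is given under each arm. The shares in the combined list run from 11.2% on 2L to 20.1% on X, and the replicate lists lie above them on every arm.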

How the data were processed

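LSD1 ChIP-seq and input libraries of Oregon-R larvae were analysed through 3 deposited lists of enriched regions, 1 for each ChIP replicate and 1 for the replicate set. Per the file headers, coordinates are those of FlyBase release 5, and they are given 1-based. Bowtie 0.12.7 is among the tools, per the submitters' processing notes. For the caller, its threshold and the making of the combined list, the method is not given in the sources used here. The deposited value of each region was read as log2 of ChIP over input, as made by the authors. No header names the unit. Among values repeated 4 times or more, 26 of 45, 56 of 133 and 30 of 122 (replicate 1, replicate 2, combined) differ from the commonest one by the log2 of a fraction whose denominator is 60 at most, to within 1e-06. With the natural log or log10 at most 2 did.

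From these lists the sites, their overlaps (at least 1 bp), the bases between cluster edges and the medians were computed with pandas 2.3.3, scipy 1.17.1 and numpy 2.4.6 under Python 3.11.15. The value of a site in a replicate is the largest among its overlapping clusters there. The interval functions were checked against a direct search on simulated intervals. The members and all lists and limits were chosen with earlier results of these data known. Sites named are the 8 with the largest combined value, the 5 most isolated, the 5 farthest from and the 5 nearest to a broad cluster, the 3 widest, the 3 narrowest and the 3 just over the width limit. The gene table at hand is of release 6, and it was not used. Depth is unknown. Alternatives covered the width limit, the overlap, the values, the distances, the neighbours, the limit for broad clusters and each replicate left out.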

Additional observations from a re-analysis of the deposited data

How the results depend on the processing

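No paired analysis was possible because the input libraries, which share their replicate numbers with the ChIP libraries, enter only through the authors' calls and have no values of their own. Of 46 alternatives for results other than the rank correlation, 20 went beyond the spread between replicates or, for the number of sites, beyond 1.5 times. That spread is the SD between the replicate lists, while the isolated share, the share near a broad cluster and the distances are those of the combined list. For these the count does not measure how firm the combined values are. The number of sites was 184 and 1130 with a width limit of 2000 and 4000 bp, 410 at or above the median value, and 1470 to 2267 with either replicate left out. The isolated share was 22.3% with the limit of 2000 bp, 33.1% and 5.47% for distances of 2 and 10 kb, and 43.1% with neighbours restricted to clusters found in both replicates, which also raised the median distance to 3737 bp. The share near a broad cluster was 17.1% and 37.6% for distances of 5 and 20 kb, and 49.4% and 9.03% with broad clusters over 5 and 20 kb, for which the median distances were 10373 and 126917 bp. The covered share was 84.2% and 77.0% with limits of 2000 and 4000 bp, and 84.0% without either replicate (84.03 to 84.04%). The rank correlation, which has no spread, was 0.40 and 0.38 with those limits, 0.39 with sites covered to at least 50%, 0.13 at or above the median value and 0.3825 with 1 cluster per replicate. It was 0.44 with clusters of 3000 bp or less in each replicate, an alternative chosen after seeing the data. The cause of each move was not tested. Read numbers are not given, so no alternative shows what depth limits.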
